A study of Saccharomyces cerevisiae with 12 samples.

Results

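FTH1, FET5, SMF3, CCC1 and COT1 are 5 genes for metal transporters and an oxidase of the yeast vacuole or of the membranes that feed it, and they were taken by name from 6660 measured genes. The data are messenger RNA levels of Saccharomyces cerevisiae in the BY4741 background, in 12 libraries of 10 groups. Among the tested groups, mmm1Δ lacks a subunit of the ERMES tether between the endoplasmic reticulum and mitochondria, and mdm34Δ lacks another ERMES subunit. The group sam37Δ lacks a subunit of the machinery that inserts proteins into the mitochondrial outer membrane. VPS13-D716H is an allele of a lipid transfer protein known to ease the defects of cells that lack ERMES. It was tested alone and joined with mmm1Δ or with sam37Δ (VPS13-D716H mmm1Δ and VPS13-D716H sam37Δ). AFT1-C291F is a form of the iron regulator Aft1 that stays active when iron is ample. The last tested group was wild type (WT) grown in clean YPD with 100 µM bathophenanthroline disulfonate (BPS), a chelator of ferrous iron, for 4 hours. Controls of the tested groups were WT in YPD, a rich glucose medium, and WT in clean YPD without BPS. Cultures in YPD were harvested at an OD600 between 0.8 and 1. Only mmm1Δ and WT in YPD have 2 libraries each, and the other 8 groups have 1, so most comparisons have no replicate check.

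The vacuole is the iron store of yeast. Ccc1 carries iron and manganese into it, and its gene is turned on by Yap5 when iron is high, while in iron shortage its transcript is a target of the decay factor Tis11, also called Cth2. Fth1, a permease, and Fet5, a multicopper oxidase, form a complex that takes iron out of the vacuole, and they resemble Ftr1 and Fet3, the complex that takes iron up at the cell surface. Smf3 is a metal transporter of the Nramp family that also moves iron out of the vacuole, after the reductase Fre6 has made it ferrous. Cot1 and its paralog Zrc1 move zinc and, for Cot1, cobalt into the vacuole, so Cot1 is a storage protein by direction although its gene belongs to the set that Aft1 and Aft2 turn on in iron shortage.

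The DNA around the genes is shown because the Aft-type element was absent before the importer gene and present before the others. The other motifs read here were shared by CCC1 with COT1 or SMF3. Within 500 bases before the start codon, an Aft-type element (TGCACCC or its variant TACACCC or variant CGCACCC or variant CACACCC, on either strand, the forms not overlapping one another) was present in FTH1, FET5, SMF3 and COT1 and in none of the letters before CCC1. Of 5995 nuclear genes with a full window, 8.77% held at least 1 such element and 0.917% at least 2. CCC1 instead held TTACTAA, the element bound by Yap5, at 2 places, which 0.951% of genes did, while 11.8% held at least 1, COT1 among them. Sequences are from the RefSeq reference of assembly R64, read 5′ to 3′ on the strand of the gene, with the element in capitals.
FTH1, chrII:634938-635004, plus strand: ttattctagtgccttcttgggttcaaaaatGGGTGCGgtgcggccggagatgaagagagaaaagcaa
FET5, chrVI:49000-49028, plus strand: tgtattcagtcTGCACCCtgtttcgccat
SMF3, chrXII:212258-212393, minus strand: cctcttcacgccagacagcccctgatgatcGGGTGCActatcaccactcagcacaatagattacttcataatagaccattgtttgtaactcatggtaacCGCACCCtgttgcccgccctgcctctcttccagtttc
COT1, chrXV:907805-907871, minus strand: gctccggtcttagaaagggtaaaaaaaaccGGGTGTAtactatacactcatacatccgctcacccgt
CCC1, chrXII:576397-576558, plus strand: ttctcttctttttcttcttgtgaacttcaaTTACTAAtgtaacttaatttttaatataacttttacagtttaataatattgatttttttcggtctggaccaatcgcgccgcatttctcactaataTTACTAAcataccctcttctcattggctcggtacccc

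Capitals that open with GGG mark elements that are on the other strand. The first base of the element is at position -178 in FTH1, -128 in FET5, -430 and -361 in SMF3, -286 in COT1, and -398 and -303 in CCC1, counted back from the start codon. Outside the 5 genes, 25 of the 27 other genes of the Aft1/Aft2 list held an Aft-type element, FTR1, FET3 and FRE6 with 2 each. ZRC1 and SMF2, paralogs of COT1 and SMF3, held 1 each, and 6 of 10 genes of a zinc list held at least 1. GRX4, another Yap5 target, held TTACTAA once. Downstream of the stop codon the letters TATTTAT, the core bound by Tis11 in RNA, were counted on the gene's strand within 300 bases, where 17.0% of genes held at least 1, 3.19% at least 2 and 0.784% at least 3. CCC1 held 2 and SMF3 held 3, and FTH1, FET5 and COT1 held none.
CCC1, chrXII:577806-577834, plus strand: aacactatacaTATTTATtgtaaagaaat
CCC1, chrXII:577927-577955, plus strand: ctctttaaattTATTTATattaatgaatt
SMF3, chrXII:210487-210511, minus strand: tggaaccTATTTATtgtcaagtgtg
A match of letters is a description and no measured binding, and these stretches were not checked against transcript ends.

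Levels are in FPKM, fragments counted per kilobase of gene and scaled to library size, as deposited in 3 tables that were normalized separately. The first table holds mmm1Δ replicate 1, mdm34Δ and WT replicate 1, the second holds the 7 libraries from mmm1Δ replicate 2 to WT replicate 2, and the third holds WT with and without BPS. Levels in FPKM are therefore set side by side only within a table. Where multiples of a library median are given for WT libraries of different tables, they are descriptions. The labels held: MMM1, MDM34 and SAM37 were listed at 0 where deleted, the auxotrophic markers LEU2, URA3 and MET17 lay at or below 1.69 FPKM while HIS3, which BY4741 lacks only in part, was at 53.8 to 331 FPKM and so checks nothing, and the receptor gene of a-type cells STE2 was at 136 to 870.5 FPKM against 0.491 to 17.2 for that of alpha cells, STE3. Ribosomal protein genes took 27.04 to 35.3% of the length-weighted FPKM in mmm1Δ, mdm34Δ, sam37Δ, both double mutants and AFT1-C291F, 45.7% in VPS13-D716H, and 46.6 and 48.9% in the WT libraries in YPD. In clean YPD it was 28.1% with BPS and 27.7% without. This share moves with the groups in YPD, and its part in the results was not tested. Each of the 5 genes is alone at its locus as listed in the second table. Their listed lengths are the same in the first and second tables.

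FTH1 (YBR207W, chromosome II, 635146 to 636543 in sacCer3), the permease gene, was at 181 FPKM in mmm1Δ replicate 1 and 159 in mdm34Δ, against 33.8 in WT replicate 1. In the second table it was at 208 in AFT1-C291F, 209 in sam37Δ, 282 in mmm1Δ replicate 2, 221 in VPS13-D716H sam37Δ, 129.7 in VPS13-D716H mmm1Δ and 92.8 in VPS13-D716H, against 74.2 in WT replicate 2. With BPS it was at 419, against 86.8 in clean YPD. FTH1 was thus lowest in the WT library of each table, and VPS13-D716H came next in the second. FET5 (YFL041W, chromosome VI, 49139 to 51007), for its partner oxidase, was at 78.3 in mmm1Δ replicate 1 and 67.9 in mdm34Δ, against 18.2 in WT replicate 1. The second table gave 128 in AFT1-C291F, 106 in sam37Δ, 124 in mmm1Δ replicate 2, 105 in VPS13-D716H sam37Δ, 41.0 in VPS13-D716H mmm1Δ and 49.1 in VPS13-D716H, against 37.0 in WT replicate 2. BPS gave 229, against 59.2 without it. FET5 too was lowest in the WT library of each table. Unlike FTH1 it was highest in AFT1-C291F in the second table, and lower in VPS13-D716H mmm1Δ than in VPS13-D716H. Per length FTH1 was above FET5 in all 12 libraries, by 1.47 times in clean YPD at the least and 3.16 times in VPS13-D716H mmm1Δ at the most.

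SMF3 (YLR034C, chromosome XII, 210512 to 211933) moved less in the first table, at 165 in mmm1Δ replicate 1 and 114 in mdm34Δ, against 92.4 in WT replicate 1. In the second it was at 198 in AFT1-C291F, 179 in sam37Δ, 180.0 in mmm1Δ replicate 2, 158 in VPS13-D716H sam37Δ, 113 in VPS13-D716H mmm1Δ and 85.0 in VPS13-D716H, against 57.8 in WT replicate 2. It was at 199 with BPS, against 87.6 in clean YPD. WT was again the lowest library of each table, but for SMF3 the mdm34Δ library lay nearer to WT than to mmm1Δ. In WT replicate 1 SMF3 was at 7.51 times the library median, against 1.39 times in WT replicate 2 and 1.68 times in clean YPD. These multiples come from separately normalized tables. SMF2, a paralog of SMF3, was also at a larger multiple in WT replicate 1 than in replicate 2, at 6.17 and 1.36 times. CCC1 was at a smaller one, at 2.22 and 3.33 times. COT1 (YOR316C, chromosome XV, 906236 to 907555), the zinc and cobalt transporter gene, was at 127 in mmm1Δ replicate 1 and 110.3 in mdm34Δ, against 32.2 in WT replicate 1. In the second table it was at 225 in AFT1-C291F, 189 in sam37Δ, 203 in mmm1Δ replicate 2, 187 in VPS13-D716H sam37Δ, 101 in VPS13-D716H mmm1Δ and 69.9 in VPS13-D716H, against 61.4 in WT replicate 2. It was at 451 with BPS, against 106 without. COT1 followed the release genes in every table rather than CCC1, whose direction of transport it shares.

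CCC1 (YLR220W, chromosome XII, 576825 to 577793), the importer gene, was lower than its control in mmm1Δ, mdm34Δ, both sam37Δ strains and BPS, and within 0.11 of WT on the log2 scale in the other 3 strains. It was at 16.6 in mmm1Δ replicate 1 and 14.1 in mdm34Δ, against 27.4 in WT replicate 1, and at 26.7 with BPS, against 114 in clean YPD. In the second table it was at 149 in AFT1-C291F, 44.9 in sam37Δ, 65.5 in mmm1Δ replicate 2, 49.3 in VPS13-D716H sam37Δ, 147 in VPS13-D716H mmm1Δ and 137 in VPS13-D716H, against 138 in WT replicate 2. The 7 libraries of that table fell into 2 ranges, 44.9 to 65.5 in mmm1Δ and both sam37Δ strains and 137 to 149 in the rest, VPS13-D716H mmm1Δ included. With no spread within a group in any one table, the order within each range has no error to be set against.

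**Figure D1:**
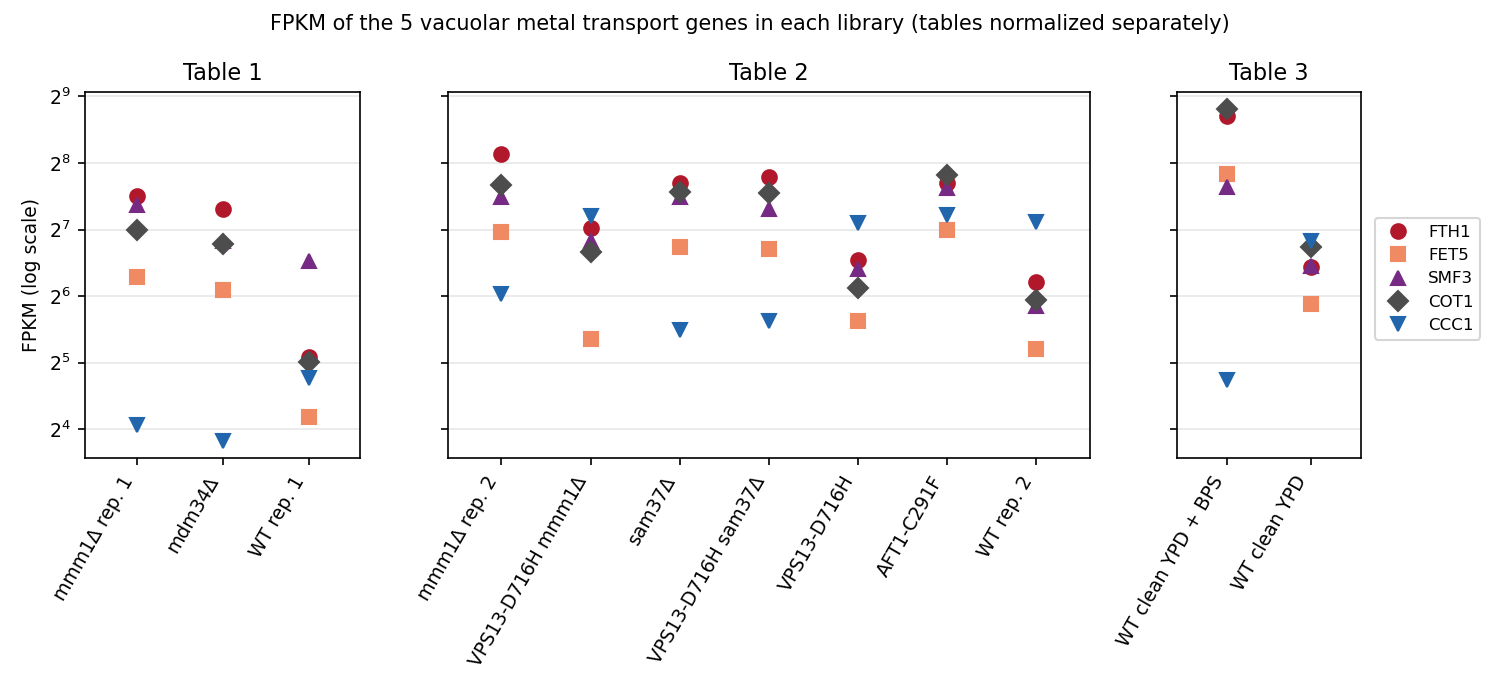
FPKM on a log scale of the 5 genes in each of the 12 libraries, 1 point per gene and library, with a panel per table. FTH1, FET5, SMF3 and COT1 are higher and CCC1 is lower in mmm1Δ, mdm34Δ, sam37Δ and BPS than in the WT library of the same panel, while CCC1 in AFT1-C291F (149 FPKM) lies near WT (138 FPKM).

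Whether iron control needs the tether, the question in the title of the study, was read from mmm1Δ against WT, the 1 comparison with a test. FTH1, FET5 and COT1 rose in mmm1Δ. The log2 ratio of (FPKM + 1), a scale that understates changes of low genes, was 2.38 and 1.91 for FTH1 in the 2 pairs, 2.05 and 1.72 for FET5, and 1.95 and 1.71 for COT1. From limma with the table as a block, means were 2.15 ± 0.36 for FTH1 (moderated SE, limma adjusted p 0.0141), 1.88 ± 0.33 for FET5 (limma adjusted p 0.0162) and 1.83 ± 0.35 for COT1 (limma adjusted p 0.0239), with 2 of 2 pairs higher for each. Of all 6029 genes tested 2.74% rose and 1.01% fell. SMF3 was at 0.83 and 1.62 in the pairs with a mean of 1.23 ± 0.38 (SE, limma adjusted p 0.133), and CCC1 at -0.69 and -1.06 with a mean of -0.88 ± 0.32 (SE, limma adjusted p 0.200), so neither passed. FRE6, the vacuolar reductase gene, was at 1.30 and 1.22 (limma adjusted p 0.0709). Only 1 residual degree of freedom is left in the fit. The calls of FTH1, FET5 and COT1 were lost with a trend on abundance removed, at limma adjusted p 0.0518, 0.0579 and 0.0579, and with no filter on low genes, at 0.138, 0.152 and 0.157. SMF3 passed when only genes of 300 nt or more with a locus to themselves were fitted, at a limma adjusted p of 0.0116. In that fit limma took each SE from the pooled trend over genes, so the spread of SMF3 between its own pairs did not count.

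In single pairs, 3 of the 5 genes were at least 2-fold higher and none 2-fold lower in pair 1, where 8.28% of 5038 genes were 2-fold higher and 15.8% lower. In pair 2, 4 were higher and CCC1 lower, where 8.57% of 6222 genes were higher and 6.69% lower. FTH1 stood at place 111 from the top in pair 1 and 183 in pair 2. Median ratios over all genes were 0.03 and -0.03. Scaling the libraries to their median FPKM lowered FTH1 to 2.21 and COT1 to 1.78 in pair 1.

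In mdm34Δ, the other way to lose ERMES, FTH1, FET5 and COT1 were higher than in WT by 2.20, 1.84 and 1.75 on the log2 scale, where 11.8% of 5136 genes were 2-fold higher. SMF3 was at 0.30 only, or 0.99 once a trend with abundance was removed, so its place among the release genes in mdm34Δ depends on the processing. CCC1 was at -0.91, short of the 2-fold line that 23.4% of genes were under. With the trend removed CCC1 was at -1.15, past that line, and the share of all genes past it was not counted in that setting. Against mmm1Δ replicate 1, its neighbour in the table, mdm34Δ differed by -0.19 for FTH1, -0.20 for FET5, -0.21 for COT1, -0.22 for CCC1 and -0.53 for SMF3, none 2-fold, where 0.704% of genes were 2-fold higher and 2.07% lower. With the trend removed FTH1 and COT1 turned to 0.16 and 0.10, so these small differences have no settled direction.

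Loss of Sam37, which is no part of ERMES, gave the same directions for the 5 genes. FTH1, FET5, SMF3 and COT1 were higher in sam37Δ by 1.48, 1.497, 1.61 and 1.60, all 4 past 2-fold, where 6.32% of 6198 genes were. CCC1 was at -1.60, its lowest ratio among the YPD libraries, where 10.7% of genes were 2-fold lower. Set against mmm1Δ replicate 2 in the same table, sam37Δ was at -0.43 for FTH1, -0.22 for FET5, -0.01 for SMF3, -0.10 for COT1 and -0.54 for CCC1, none of them 2-fold, where 4.76% of genes were 2-fold higher and 10.1% lower.

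The VPS13-D716H libraries ask what the allele does alone and in each deletion strain. Alone, it left all 5 genes within 2-fold of WT, with FTH1 at 0.32, FET5 at 0.40, SMF3 at 0.55, COT1 at 0.18 and CCC1 at -0.01, where 2.21% of 6160 genes were 2-fold higher and 2.09% lower. Over mmm1Δ replicate 2, the double mutant VPS13-D716H mmm1Δ had FTH1 lower at -1.11, FET5 at -1.58, SMF3 at -0.67, COT1 at -0.998 and CCC1 higher at 1.15. Of 6245 genes 9.43% were 2-fold higher and 12% lower there. CCC1 in the double mutant was within 0.09 of WT and FET5 within 0.14, while FTH1, SMF3 and COT1 were at 0.80, 0.96 and 0.71 over WT, where 11.7% of 6216 genes were 2-fold higher and 11.6% lower. Over sam37Δ, VPS13-D716H sam37Δ had FTH1 at 0.08, FET5 at -0.02, SMF3 at -0.18, COT1 at -0.01 and CCC1 at 0.13, where 1.18% of 6189 genes were 2-fold higher and 1.02% lower. Over WT it had FTH1 at 1.56, FET5 at 1.48, SMF3 at 1.43, COT1 at 1.59 and CCC1 at -1.47, all past 2-fold, where 6.81% of 6209 genes were higher and 10.9% lower. Against VPS13-D716H alone, loss of Sam37 gave 1.24, 1.08, 0.89 and 1.41 for FTH1, FET5, SMF3 and COT1 and -1.46 for CCC1, where 6.31% of genes were 2-fold higher and 9.45% lower, while loss of Mmm1 gave 0.48, -0.25, 0.41, 0.52 and 0.10, none 2-fold, where 13.1% of genes were 2-fold higher. With the allele all 5 genes thus differed by at least 0.67 in mmm1Δ cells and by at most 0.18 in sam37Δ cells, each from 1 library per group, and the difference between the backgrounds was not tested.

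**Figure D2:**
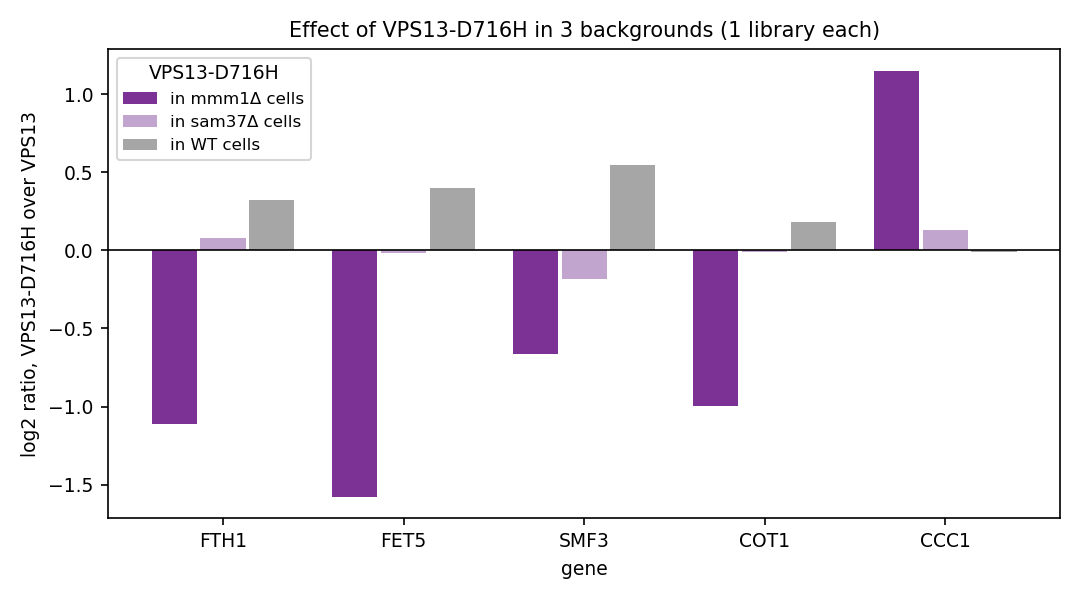
Log2 ratio of (FPKM + 1) of VPS13-D716H over VPS13 for each gene, in mmm1Δ, sam37Δ and WT cells, 1 library per group and no error bars. In mmm1Δ cells the bars reach -1.58 for FET5 and 1.15 for CCC1, and in sam37Δ cells all lie between -0.18 and 0.13.

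AFT1-C291F separates the importer gene from the release genes. FTH1, FET5, SMF3 and COT1 were higher than in WT by 1.47, 1.76, 1.76 and 1.86, past 2-fold as were 15.6% of 6174 genes, and FRE6 was at 1.90. CCC1 was at 0.11, where 14.2% of genes were 2-fold lower. Over mmm1Δ replicate 2, AFT1-C291F had FET5 at 0.04, SMF3 at 0.14, COT1 at 0.15 and FTH1 at -0.44, but CCC1 at 1.17, where 17.7% of 6236 genes were 2-fold higher. AFT1 itself was at 56.2 FPKM in AFT1-C291F, against 10.03 in WT replicate 2. In the same table it was at 28.5 in sam37Δ, 32.5 in VPS13-D716H sam37Δ, 17.6 in mmm1Δ replicate 2, 16.2 in VPS13-D716H and 9.16 in VPS13-D716H mmm1Δ. With BPS AFT1 was at 57.7, against 25.6 in clean YPD.

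BPS, a chelator of ferrous iron, was added to WT cells, whose iron content was not measured. The zinc uptake gene ZRT1 was at 2.42 on the log2 scale with BPS, the highest of the 10 genes of the zinc list. The median of that list was 0.11. In it 2 genes were 2-fold higher and 1, ADH4 at -1.28, was 2-fold lower, beside 3.18 and 3.91% of all genes. FTH1, FET5 and COT1 were higher with BPS by 2.26, 1.94 and 2.07 and SMF3 by 1.17, all past 2-fold, where 3.18% of 6262 genes were. CCC1 was at -2.06, place 60 from the bottom, where 3.91% of genes were 2-fold lower. It was the lowest ratio of CCC1 in any comparison with a control, and FTH1 was at place 55 from the top.

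**Figure D3:**
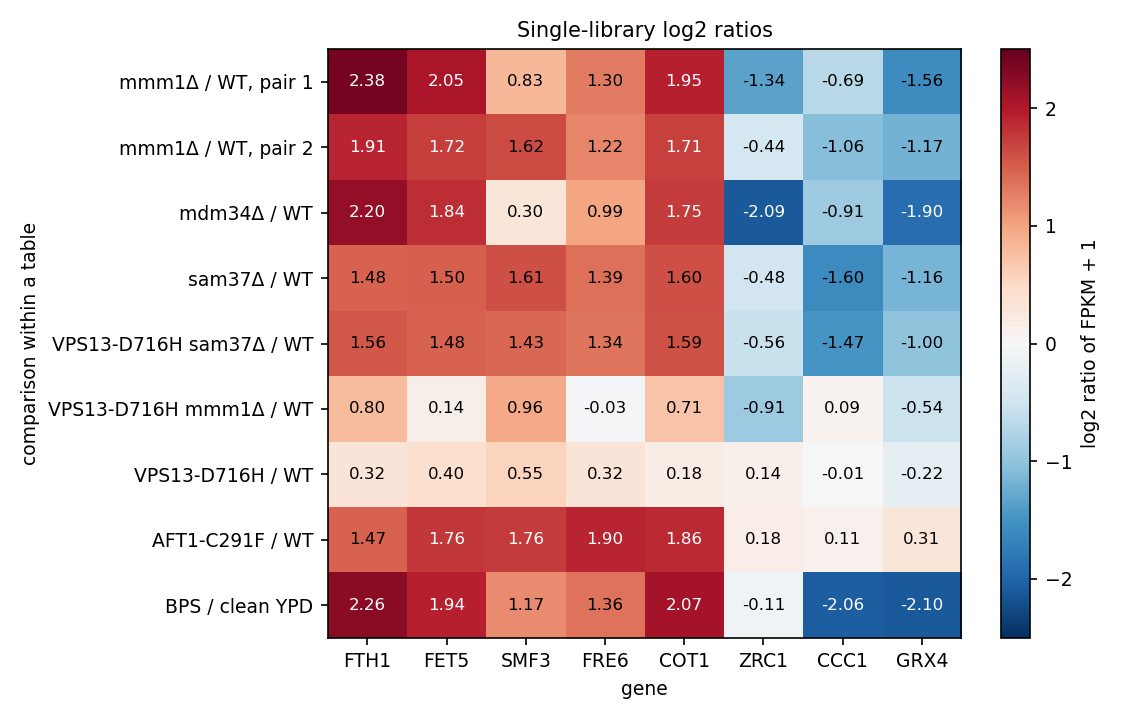
Log2 ratio of (FPKM + 1) over the control of the same table (colour scale and printed values) for the 5 genes, the reductase gene FRE6, the COT1 paralog ZRC1 and the Yap5 target GRX4, in 9 comparisons of single libraries. CCC1 and GRX4 are below 0 in mmm1Δ, mdm34Δ, sam37Δ and BPS and above it in AFT1-C291F, at 0.11 and 0.31, while FTH1 is at 1.47 or more in all of these.

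The release genes were then set against CCC1 within each library, a ratio that no scaling of a whole library can move. FTH1 over CCC1 in FPKM was 10.9 in mmm1Δ replicate 1 and 11.3 in mdm34Δ, against 1.24 in WT replicate 1. In the second table it was 1.39 in AFT1-C291F, 4.65 in sam37Δ, 4.30 in mmm1Δ replicate 2, 4.48 in VPS13-D716H sam37Δ, 0.884 in VPS13-D716H mmm1Δ and 0.676 in VPS13-D716H, against 0.537 in WT replicate 2. With BPS it was 15.7, against 0.761 in clean YPD. FTH1 was below CCC1 in 4 libraries: WT replicate 2, WT in clean YPD, VPS13-D716H and VPS13-D716H mmm1Δ. FET5 over CCC1 was 4.71 in mmm1Δ replicate 1 and 4.82 in mdm34Δ, against 0.665 in WT replicate 1, and 8.59 with BPS, against 0.519 without. SMF3 over CCC1 was 9.94 in mmm1Δ replicate 1 and 8.08 in mdm34Δ, against 3.38 in WT replicate 1, so SMF3 exceeded the importer there also in WT, which it did not in WT of the other tables, at 0.418 in YPD and 0.768 in clean YPD.

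As 1 value per comparison, the mean log2 ratio of FTH1, FET5 and SMF3 less that of CCC1 was 2.44 and 2.82 in the mmm1Δ pairs, with an SD of 0.27 over these 2. It was 2.36 in mdm34Δ, 3.13 in sam37Δ, 2.96 in VPS13-D716H sam37Δ, 0.55 in VPS13-D716H mmm1Δ, 0.43 in VPS13-D716H, 1.56 in AFT1-C291F and 3.84 with BPS. In mmm1Δ the release genes gave the larger part, a mean of 1.75 in each pair, and CCC1 the rest. In BPS the mean of the release genes was 1.79 and CCC1 was at -2.06, while in AFT1-C291F the release genes gave 1.66 and CCC1 took 0.11 off. The 9 comparisons share control libraries within a table and are given side by side only.

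**Figure D4:**
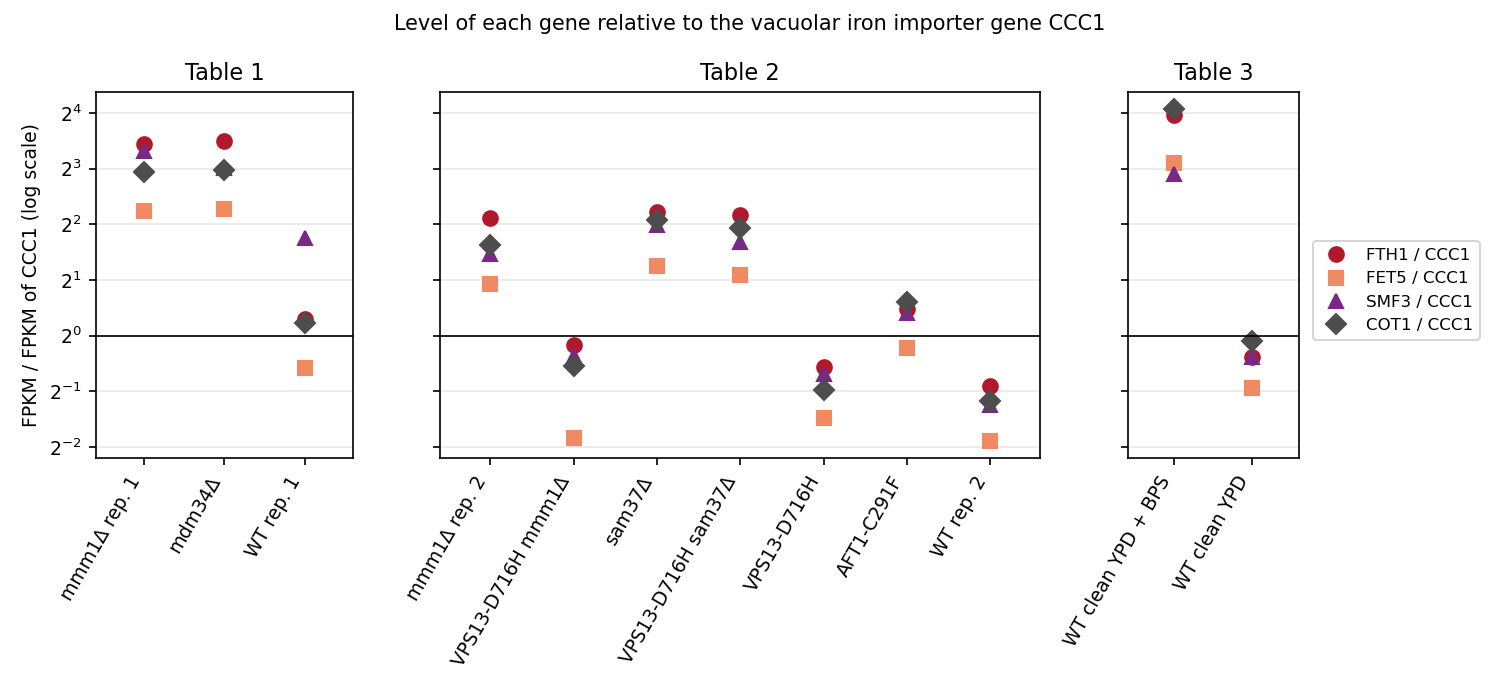
FPKM of FTH1, FET5, SMF3 and COT1 divided by that of CCC1 in the same library, on a log scale with a line at 1, in a panel per table. The FTH1 points stand at 10.9, 11.3, 4.30, 4.65, 4.48 and 15.7 in mmm1Δ replicate 1, mdm34Δ, mmm1Δ replicate 2, sam37Δ, VPS13-D716H sam37Δ and BPS, against 1.24, 0.537 and 0.761 in the WT controls.

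**Figure D5:**
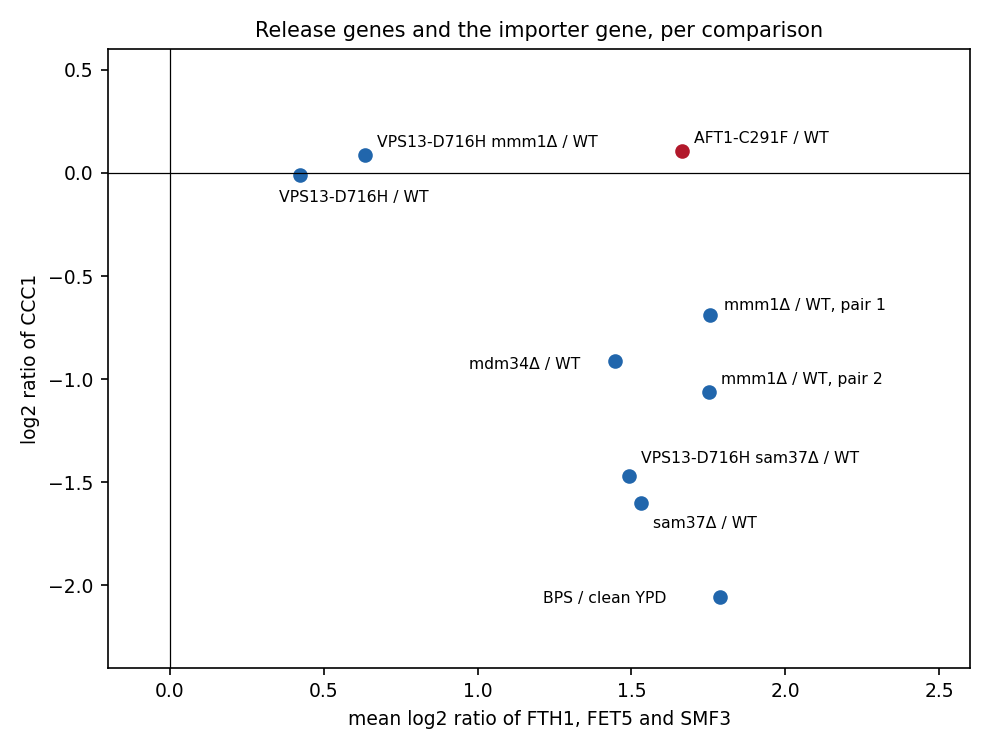
Log2 ratio of CCC1 (vertical axis) against the mean log2 ratio of FTH1, FET5 and SMF3 (horizontal axis), 1 point per comparison with the control of its table. AFT1-C291F, in red, has a release mean of 1.66, against 1.75 in both mmm1Δ pairs, 1.53 in sam37Δ and 1.79 with BPS, with CCC1 at 0.11 where those have -0.69, -1.06, -1.60 and -2.06. VPS13-D716H and VPS13-D716H mmm1Δ have release means of 0.42 and 0.63.

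Paralogs were read beside the genes. ZRC1, the zinc transporter gene paired with COT1, was below WT at -1.34 and -0.44 in the mmm1Δ pairs (mean -0.89 ± 0.46, SE, limma adjusted p 0.340), at -2.09 in mdm34Δ and at -0.48 in sam37Δ, and at 0.18 in AFT1-C291F and -0.11 with BPS. With a trend on abundance removed, ZRC1 was at -0.31 and -0.22 in the mmm1Δ pairs and -0.67 in mdm34Δ. SMF1 and SMF2, the Nramp genes for manganese and other metals outside the vacuole membrane, had limma means of 0.42 and -0.12 in mmm1Δ (limma adjusted p 0.512 and 0.899). FET3 and FTR1, the surface pair, were at 4.21 and 3.50 in AFT1-C291F and at 3.34 and 3.13 with BPS, larger ratios than those of FET5 and FTH1. In the mmm1Δ pairs the order differed: FET3 and FTR1 were at 1.26 and 0.59 in pair 1, below FET5 and FTH1, and at 2.33 and 2.31 in pair 2, above them. In mdm34Δ, of the same table as pair 1, they were again lower, FET3 at 0.77 and FTR1 at -0.12 against 1.84 for FET5 and 2.20 for FTH1, though with the trend removed FET3 was at 2.003 and FTR1 at 1.49. In WT replicate 1, the control of pair 1 and of mdm34Δ, FET3 and FTR1 were already at 19.8 and 82.5 times the library median. In WT replicate 2 they were at 2.84 and 3.05 times. In VPS13-D716H alone FET3 and FTR1 were at 1.18 and 1.20, while FTH1 and FET5 were at 0.32 and 0.40.

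The regulators of the importer gene were read in the same libraries. GRX4, a glutaredoxin gene that Yap5 turns on as it does CCC1, was at -1.56 and -1.17 in the mmm1Δ pairs (limma adjusted p 0.0698), -1.90 in mdm34Δ, -1.16 in sam37Δ and -2.10 with BPS, but at 0.31 in AFT1-C291F. In VPS13-D716H mmm1Δ GRX4 was at -0.54 over WT, where CCC1 was at 0.09. YAP5 itself was higher, at 0.69 and 1.66 in the mmm1Δ pairs (limma adjusted p 0.114), 1.30 in sam37Δ and 0.73 with BPS. TIS11, for the decay factor, rose in mmm1Δ by 4.20 ± 0.38 (SE, limma adjusted p 0.000426), a call lost with no filter on low genes, at a limma adjusted p of 0.0906. It was at 4.74 in sam37Δ, 4.42 in VPS13-D716H sam37Δ, 4.81 with BPS and 5.39 in AFT1-C291F, the library in which CCC1 was at 0.11. In VPS13-D716H mmm1Δ TIS11 was still at 2.02 over WT.

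Other gene lists place these values. Of the 27 other genes in the Aft1/Aft2 list, 26 passed the filter in the mmm1Δ fit, 15 rose and none fell, with a median of 1.79 beside 0.03 over all genes, of which 2.74% rose and 1.01% fell. FET3, FTR1 and FRE6 were not among those called. With BPS 25 of 27 were 2-fold higher, beside 3.18% of all genes, with a median of 2.28. In AFT1-C291F it was 21 of 25 beside 15.6%, with a median of 3.34. In sam37Δ 19 of 27 were 2-fold higher beside 6.32%, with a median of 1.68, and in mdm34Δ 19 of 24 beside 11.8%, with a median of 2.24. In VPS13-D716H mmm1Δ over mmm1Δ, 20 of 27 were 2-fold lower, beside 12% of all genes, and HMX1 alone 2-fold higher, beside 9.43%, with a median of -1.63. Over WT this double mutant still had 9 of 24 2-fold higher, beside 11.7% of all genes, led by FIT3 at 5.49. None of the 24 was 2-fold lower, beside 11.6%, and their median was 0.64. The FTH1, FET5, SMF3 and COT1 ratios all lay below the median of the list in AFT1-C291F, BPS, sam37Δ and mdm34Δ. In the mmm1Δ fit the means of FTH1, FET5 and COT1 lay above it and that of SMF3 below. Against the list medians of the single mmm1Δ pairs, 2.07 and 2.10, only FTH1 in pair 1 lay above. The Yap5 list held CCC1, GRX4, TYW1 and the near-identical copies CUP1-1 and CUP1-2, whose levels are uncertain. By limma none of the 5 was called in mmm1Δ, and CCC1 and GRX4 had an unadjusted p under 0.05, as did 1143 of all 6029 genes. The list median was -0.17 and -1.06 in the mmm1Δ pairs, -1.20 in mdm34Δ, -0.13 in sam37Δ and -0.39 with BPS. The lowest gene was GRX4 in both mmm1Δ pairs, mdm34Δ and BPS, and CCC1 in sam37Δ. The highest was TYW1 in pair 1 and mdm34Δ, at 0.14 and 0.25, and CUP1-2 in pair 2, sam37Δ and BPS, at 0.25, 0.35 and -0.10. In AFT1-C291F the list median was 0.11, with genes from CUP1-1 at -0.28 to TYW1 at 2.11. In VPS13-D716H mmm1Δ over WT the median was 0.09, with genes from TYW1 at -1.71 to CUP1-2 at 1.97.

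Other genes of the vacuole were read from further lists. Of 12 further vacuolar, Golgi and endoplasmic reticulum metal and ion transporters none was called in mmm1Δ by limma, and none had an unadjusted p under 0.05, with a median of 0.06. Over all 6029 genes 226 were called and 1143 had an unadjusted p under 0.05. With BPS only CTR2, which moves copper out of the vacuole, was 2-fold higher in that list, at 1.86, and none was 2-fold lower, beside 3.18 and 3.91% of all genes. In AFT1-C291F 4 of the 12 were 2-fold higher, beside 15.6% of all genes, led by YCF1 at 2.18. Of 18 subunits and assembly factors of the vacuolar H+-ATPase none was called in mmm1Δ and 2 had an unadjusted p under 0.05. None was past 2-fold with BPS, and the median there was 0.06. In sam37Δ 7 of the 18 were 2-fold lower, beside 10.7% of all genes, with a median of -0.63, or -0.11 once a trend with abundance was removed. Vacuolar hydrolases had no limma call of 9 in mmm1Δ, with 4 at an unadjusted p under 0.05, all higher, beside 1143 of all 6029 genes in either direction. In VPS13-D716H mmm1Δ over WT 5 of 10 hydrolase genes were 2-fold higher, beside 11.7% of all genes, led by APE1 at 2.04.

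Genes most like each of the 5 were found by the Pearson correlation of log2 (FPKM + 1), centred on the mean of its table, over the 12 libraries and among 3908 other genes. The points share tables and controls, so these are descriptions. FTH1 was most like COT1 (0.98), PRM4 (0.97) and AMD2 (0.97), and FET5 was most like ARN1 (0.99), ENB1 (0.98) and COT1 (0.98), of which ARN1 and ENB1 encode siderophore transporters. COT1 was most like ENB1 (0.99), TIS11 (0.99) and FTH1 (0.98). SMF3 was most like FIT2, a cell wall mannoprotein gene for siderophore iron (0.95), TIS11 (0.94) and YLR046C (0.94), and FTH1 was at place 19 in its order. CCC1 was most like NDE1, for a mitochondrial NADH dehydrogenase (0.93), ADE13, for adenylosuccinate lyase (0.93), and GRX4 (0.88). Those most opposite to CCC1 were YDR274C (-0.94), YBR012C (-0.92) and COS10 (-0.91), and FTH1, FET5, COT1 and SMF3 were at -0.76, -0.74, -0.74 and -0.66. PRM4 was at 1.93 and 2.23 in the mmm1Δ pairs and at 2.02 with BPS, close to FTH1, while AMD2 followed with small ratios, 0.49, 0.41 and 0.41.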

How the data were processed

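The deposited values are FPKM for each of 6660 genes, which the authors placed in 3 tables beside a column of gene lengths, as the file headers say. TopHat2 2.0.8, Cuffdiff 2.0.2 and sacCer3 are named per the submitters' processing notes, without roles or settings. Libraries were made from TruSeq or KAPA stranded reagents, and the labels' protocols do not tie either to a library. Columns were matched to libraries by name. The labels of WT replicate 2 point to the clean YPD table, but its column stands in the table of mmm1Δ replicate 2. The tables were taken as normalized separately, because their median FPKM differed (12.3 to 15.5, 40.2 to 44.3, and 50.4 to 52.2). In addition, 273 gene lengths in the first differ from those in the second. Depth is unknown. Of the 50 low values examined in each library, 6.0 to 14.0% were within 0.05 of a multiple of the smallest one, so reads could not be recovered and neither a count test nor a counting error is given.

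Log2 ratios of (FPKM + 1) were taken within a table for genes whose FPKM averaged 5 or more in the libraries compared. Ratios past 2-fold were counted and have no p. For mmm1Δ against WT, limma 3.58.1 in R 4.3.3 was fitted on 6029 genes with trend on, two-sided, with the replicate number, which is also the table, as a block, and a Benjamini-Hochberg adjusted p under 0.05 over all genes was called. Same-numbered mmm1Δ and WT libraries deviated together, with r = 0.62 across these genes. The block was kept because the tables were normalized separately. The labels do not say that replicates are separate cultures, so p-values measure the spread between these libraries. The fit was tested on simulated data.

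The 5 genes and the gene lists were chosen with earlier results of these data known. Named genes are the 5, their paralogs, the extremes of each list, regulators in the lists, and the 3 genes most like each by correlation among genes averaging 5 FPKM or more in each table, at least 300 nt long and alone at their locus; PRM4 and AMD2 values were added after they were seen. Locations and sequences are from RefSeq assembly R64, in which 5363 of 5983 matched nuclear genes have the same ends as in the files. The motifs and windows were also chosen after the levels were seen. Alternatives were other pseudocounts, filters, scaling, trend removal, no replicate block and single pairs.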

Additional observations from a re-analysis of the deposited data

Results flagged for a closer look

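The effect of VPS13-D716H went opposite ways in cells without Mmm1 and in WT cells for 4 genes. The log2 ratio was -1.11 in mmm1Δ cells and 0.32 in WT cells for FTH1, -1.58 and 0.40 for FET5, -0.67 and 0.55 for SMF3, and -0.998 and 0.18 for COT1. For SMF3 it was also -0.18 in sam37Δ cells, against 0.55 in WT cells. Read the other way, loss of Mmm1 gave FET5 a ratio of -0.25 in VPS13-D716H cells, against 1.72 in VPS13 cells. Each value is from 1 library per group, ratios of opposite sign were listed where both were at least 0.1 in size, and none of these differences was tested.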

How the results depend on the processing

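With pseudocounts of 0.1 and 5, libraries scaled to their median, a filter of 20 FPKM, only longer genes alone at their locus and limma without a trend, FTH1, FET5 and COT1 were called in mmm1Δ as in the main fit. The direction of all 5 genes in mmm1Δ was kept in every setting run. With the abundance trend removed FTH1, FET5 and COT1 were at 2.33, 1.90 and 1.96 and were not called, nor with no filter on low values, at 2.15, 1.88 and 1.83. With no replicate block they kept these values with SEs of 1.09, 1.24 and 1.13 and were not called, nor with no replicate block and scaled libraries, at 1.98, 1.72 and 1.66. SMF3, at 1.23, was called with a filter of 20 FPKM and among longer genes alone at their locus. So were GRX4, FRE6 and FET3, which were also called with a pseudocount of 0.1, GRX4 also with scaled libraries (limma adjusted p 0.0452) and FET3 with the trend removed (0.0437). With the filter of 20 FPKM and with longer genes alone, limma took each SE from the pooled trend over genes, not from a gene's own spread. TIS11 was not called with no filter, nor with no replicate block, alone (0.159) or with scaling (0.511). Leaving out a replicate pair, a value with no test, gave 1.91 to 2.38 for FTH1, 1.72 to 2.05 for FET5, 0.83 to 1.62 for SMF3, -1.06 to -0.69 for CCC1, 1.71 to 1.95 for COT1 and 2.44 to 2.82 for the release genes less CCC1. Calls over all genes were 226 (165 rose, 61 fell) in the main fit, and 372 (248, 124) with a pseudocount of 0.1, 140 (26 fell) with 5, 86 (79, 7) with the trend removed, 23 (20, 3) with no filter, 411 (175 fell) with a filter of 20 FPKM, 543 (364, 179) for longer genes alone, 25 (23, 2) with no replicate block and 3 (2, 1) with no replicate block and scaled libraries. Scaling gave 116 falls. The fits without the block set values of separately normalized tables against each other. The causes of the other shifts were not tested.

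The release genes less CCC1 moved by more than the SD of the mmm1Δ pairs in mmm1Δ pair 1, to 2.88 with the trend removed and 2.90 without SMF3, in mdm34Δ over WT, to 3.004 with the trend removed and 2.93 without SMF3, in mdm34Δ over mmm1Δ, to 0.28 with the trend removed from -0.08, and with BPS, to 4.15 without SMF3. Of 320 alternative values of single ratios, 314 stayed within the SD of the mmm1Δ pairs for that gene and 6 moved, 5 of them in comparisons of mdm34Δ, all with the trend removed, and none of a 2-fold ratio changed sign. Each such SD is from only 2 pairs, in separately normalized tables, so staying within it is a weak check.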
